A study of Homo sapiens with 6 samples.

Results

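The regions described here are all pairs of 40-kb bins with one bin on chromosome 12 and the other on chromosome 13, taken from the Hi-C maps of SNU-C1, HCC1954 and OE33. Hi-C joins DNA ends that lie close together in the nucleus and counts the joined fragments as read pairs. The set held 9639360 of the 2733951927 pairs of bins on different chromosomes (0.353%). A bin is called usable in a line if it had at least 0.25 of the median coverage of that map. Of the set, 5425959 pairs (56.3%) had both bins usable in all 3 lines. The pair was chosen by its contact values in SNU-C1, which were already known to be high, and its corners and edges were selected on the same values, so these are given as a description, with no test. SNU-C1 is a colon cancer line, HCC1954 a breast cancer line and OE33 an oesophageal adenocarcinoma line, and the labels give no treatment or engineered change for any of them. SW480, another colon cancer line with replicates 1 and 2, held only 0.215% and 0.217% of its read pairs between chromosomes, where SNU-C1 held 14.8%, HCC1954 19.6% and OE33 36.6%, and was used within chromosomes and for coverage only. The SNU-C1 map held 135017346 read pairs, that of HCC1954 116359220, that of OE33 141120752, and those of the SW480 replicates 80514128 and 82191278. With 1 map per line between chromosomes there was no replicate check, and each interval in parentheses is an exact 95% Poisson interval on the number of read pairs. It covers counting error only, and not the variation between libraries or cultures of a line.

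Chromosomes occupy separate territories in the nucleus, so loci on different chromosomes meet rarely and without a fixed partner. Where pieces of 2 chromosomes lie on the same DNA molecule, contact in a Hi-C map is highest at the point of joining, falls with the summed distance from it, and fills only the quadrant made by the joined sides. Within a chromosome, loci also sort into A compartments, rich in genes and active chromatin, and B compartments, poor in both and often at the nuclear lamina.

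In SNU-C1 the contacts of chromosome 12 with 13 were set off by 4 sharp edges. On chromosome 13 they bounded a stretch of 37.12 Mb, chr13:65920001-103040000, and on chromosome 12 a gap of 0.52 Mb, chr12:98960001-99480000 (hg19, as in the deposited bins). The lower end of the stretch had its strongest contacts with chromosome 12 just below the gap, and the upper end had its strongest contacts with chromosome 12 just above the gap. The edges are candidate breakpoints at the resolution of a bin, not at that of a base. TMPO, the gene of a lamina-associated protein, ended 15.9 kb below the lower edge of the gap. ANKS1B, an ankyrin-repeat gene known from synapses, spanned the upper edge of the gap, and FGF14, an intracellular fibroblast growth factor family member that modulates sodium channels, spanned the upper edge of the stretch. No protein-coding gene crossed the lower edge of the stretch, and the nearest above it was PCDH9, a protocadherin gene, at 0.957 Mb.

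The maps were made with MboI, which cuts at GATC, so each read pair joins fragments that end at this motif. The 250 bases before the annotated start of each of these 4 genes are shown because these genes mark the edges, read 5′ to 3′ on the strand of the gene from GRCh37, with every GATC in capitals. TMPO (plus strand) is at chr12:98909107-98909356, ANKS1B (minus strand) at chr12:100378715-100378964, FGF14 (minus strand) at chr13:103054808-103055057 and PCDH9 (minus strand) at chr13:67804578-67804827.
TMPO: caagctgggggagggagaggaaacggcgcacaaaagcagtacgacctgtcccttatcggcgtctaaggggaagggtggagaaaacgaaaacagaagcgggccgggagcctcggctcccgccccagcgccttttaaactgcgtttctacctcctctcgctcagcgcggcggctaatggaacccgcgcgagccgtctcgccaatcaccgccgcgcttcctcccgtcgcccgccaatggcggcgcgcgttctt
ANKS1B: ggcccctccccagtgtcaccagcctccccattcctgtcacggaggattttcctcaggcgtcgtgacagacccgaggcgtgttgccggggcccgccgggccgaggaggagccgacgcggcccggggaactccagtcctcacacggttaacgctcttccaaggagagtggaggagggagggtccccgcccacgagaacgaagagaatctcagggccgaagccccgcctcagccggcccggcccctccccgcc
FGF14: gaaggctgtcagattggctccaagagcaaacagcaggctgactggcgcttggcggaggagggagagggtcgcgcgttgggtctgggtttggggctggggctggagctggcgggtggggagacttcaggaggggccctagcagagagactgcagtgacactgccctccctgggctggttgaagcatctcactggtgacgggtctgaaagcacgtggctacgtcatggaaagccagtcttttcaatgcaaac
PCDH9: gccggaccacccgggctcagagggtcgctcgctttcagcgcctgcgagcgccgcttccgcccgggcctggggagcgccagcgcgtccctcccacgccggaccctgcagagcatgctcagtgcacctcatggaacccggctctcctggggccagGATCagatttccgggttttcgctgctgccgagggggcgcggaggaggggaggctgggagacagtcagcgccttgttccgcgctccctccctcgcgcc
GATC reads the same on both strands. It occurred 1 time before PCDH9 and 0 times before the other genes, and 500 of the 1362 windows of the same length before protein-coding genes of chromosomes 12 and 13 (36.7%) held it. At the scale of the map every edge bin could be cut many times: the bins below and above the lower edge of the gap held 119 and 139 GATC sites, those of its upper edge 90 and 104, those of the lower edge of the stretch 80 and 99, and those of its upper edge 92 and 76, beside medians of 99 per bin on chromosome 12 and 92 on chromosome 13. The FGF14 start lay 14.8 kb beyond the stretch, while most of the gene body lay inside it.

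Contact between the chromosomes is given as O/E. This is the corrected contact frequency divided by the average that bins of separate chromosomes, usable in all 3 lines, had in that map. The mean of whole chromosomes and, unless stated, the specific block pairs also used only bins usable in all 3 lines. O/E at corners, in quadrants, of regions and of genes used the bins usable in the line itself. Over all bin pairs usable in all 3 lines, chromosome 12 with 13 had a mean O/E of 2.31 in SNU-C1 (2.30 to 2.32, 162408 read pairs). HCC1954 had 0.977 (0.968 to 0.987, 43572 read pairs), and OE33 had 1.03 (1.02 to 1.04, 114961 read pairs). The SNU-C1 value ranked 10 of 253 pairs of chromosomes in that map, whose other pairs had a median of 1.02 and ran from 0.555 to 4.28. Chromosome 13 in SNU-C1 also reached 2.38 with chromosome 20 and 2.47 with chromosome 21, so a high mean was not particular to chromosome 12. It was not high with every chromosome, since it had 0.954 with chromosome X and 0.969 with chromosome 4, both below that median. With an expected value from the product of both chromosomes' sums of contacts with other chromosomes, the mean was 1.54. The same pair ranked 140 in HCC1954 and 127 in OE33, close to the middle.

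The excess in SNU-C1 was uneven. A pair of 1-Mb blocks was called specific to a line where its O/E reached 4 or more and, with 0.5 added to every value, stood 4 or more times above the higher of the others. Of 9216 block pairs tested, 493 (5.35%) were specific to SNU-C1, where 0.17% of all block pairs between chromosomes were. The count depended on the bins and the reference: it was 71 of 6384 where every bin needed 0.5 of the median coverage, 574 of 9216 with HCC1954 alone as reference, and 1362 of 12160 with HCC1954 alone and bins of OE33 not required. In HCC1954 1 block pair was specific (background 0.397%) and in OE33 0 were (background 0.0696%). The rule on contacts chose the chromosomes, so nothing is read from these shares. The 493 held 16 to 2052 read pairs each, with a median of 68. Just inside the threshold the O/E was 4.06, 4.12 and 4.13, and the highest O/E left out was 12.3, where another line was high as well.

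Position separated the called block pairs, but OE33 had enough usable bins in only 17 of the 39 blocks of the stretch, so the others, the lower end with the first corner among them, were not tested. Of the 578 block pairs of chromosome 12 above the gap with the stretch, 289 (50%) were specific. Of the 1598 on chromosome 12 below the gap with the stretch, 203 (12.7%) were. Outside the stretch 1 block pair was called, on chromosome 12 below the gap with chromosome 13 below the stretch, of 4136 tested there. With HCC1954 alone as reference and no OE33 bins required, chosen after seeing the data, all 39 blocks of the stretch were tested, and 622 of 1326 (46.9%) above the gap and 733 of 3666 (19.99%) below it were specific, where 0.276% of all block pairs between chromosomes were. Outside the stretch, 3 of 4230 (0.0709%) were specific below it with chromosome 12 below the gap. Above it with chromosome 12 above the gap, 4 of 374 (1.07%) were, which is more than the share over all block pairs. The stretch took 64.5% of the read pairs between the chromosomes in SNU-C1 (165311 of 256205), 34.1% in HCC1954 (17617 of 51594) and 12.9% in OE33 (15365 of 119232). It held 925 of the 2373 usable bins of chromosome 13 in SNU-C1, 924 of 2347 in HCC1954 and 368 of 1759 in OE33. OE33 thus had 368 usable bins of the 928 in the stretch, so comparison with OE33 covered only part of it.

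**Figure D1:**
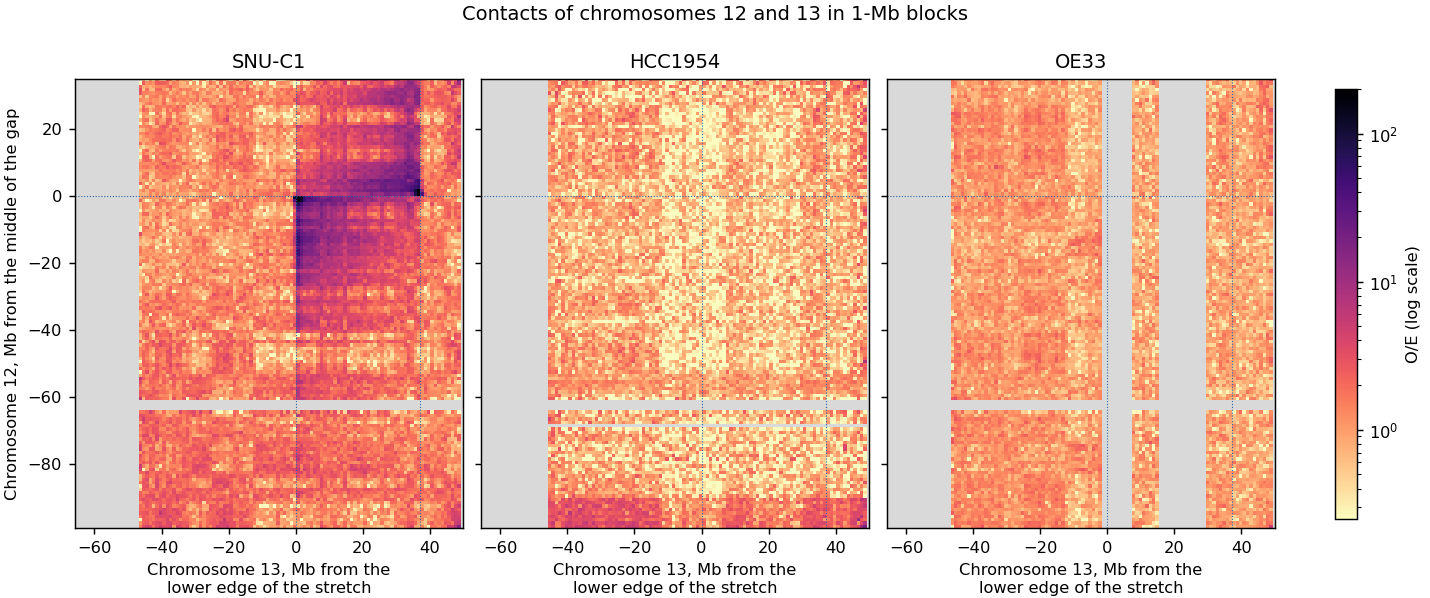
Contacts of chromosome 12 with 13 in SNU-C1, HCC1954 and OE33, as O/E in 1-Mb blocks on a log colour scale, against distance from the lower edge of the stretch on chromosome 13 and from the middle of the gap on chromosome 12, in Mb; grey marks blocks with no value and dotted lines the edges of the stretch and the middle of the gap. In SNU-C1 a dark band fills the 37.12-Mb stretch, darkest at its lower end below the gap and at its upper end above it. The band is missing from HCC1954 and from those blocks of OE33 that have a value.

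The first corner, which had the highest corrected O/E, lay at the bins chr12:98880001-98920000 and chr13:65960001-66000000. The chromosome 12 bin overlapped the start of TMPO, and most of it lay upstream of the gene. The 3 by 3 bins around it held 172 read pairs in SNU-C1 (147 to 200) and 0 in HCC1954, for an O/E of 3685 in SNU-C1, and OE33 had no usable bins there. In the wider block pairs that led to it the SNU-C1 O/E was 1913 over 200 kb and 504 over 1 Mb, with 1630 read pairs in the 1-Mb block pair, whose chromosome 13 side starts at 66 Mb, next to the bin named. Each finer step took the highest value in or next to the one before, so this rise toward the corner follows from the search and is a description only.

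The second corner lay at chr12:99560001-99600000 and chr13:102960001-103000000, inside ANKS1B and FGF14. Its 3 by 3 bins held 250 read pairs in SNU-C1 (220 to 283) and 0 in both HCC1954 and OE33, all with usable bins, for an O/E of 2337. Over 200 kb the O/E was 1239, and over 1 Mb it was 297 with 2052 read pairs, against 0.890 with 3 read pairs in HCC1954 and 1.02 with 10 in OE33. The 1-Mb values of the other lines were thus near the genome mean of 1. The second corner held more read pairs than the first, and without correction its O/E of 2972 was above the 2045 of the first. A count of 0 in 9 bin pairs is not by itself low, since the mean frequency was 0.0109 per bin pair in HCC1954 and 0.0246 in OE33.

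The next local maxima were weaker and lay inside the band between the edges. On chromosome 12 at 86.52 Mb, in MGAT4C, with chromosome 13 at 66.92 Mb, in PCDH9, the 3 by 3 bins held 8 read pairs (O/E 179) and the 1-Mb block pair 182 (60.1). On chromosome 12 at 129.84 Mb, in TMEM132D, with chromosome 13 at 101.48 Mb, between TMTC4 and NALCN, the 3 by 3 bins also held 8 read pairs (108) and the 1-Mb block pair around them 71 (13.6). With so few read pairs these places are given as values and not described as corners.

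The sides of each corner set its orientation. Around the first corner, the 2-Mb quadrant of chromosome 12 below the lower edge of the gap with chromosome 13 above the lower edge of the stretch had an O/E of 291 (282 to 299, 4196 read pairs). The next quadrant, above on both chromosomes, had 6.67 (108 read pairs), and those with chromosome 13 below the edge had 1.35 (25) and 1.21 (23). HCC1954 had 6 read pairs in the strongest quadrant of SNU-C1, an O/E of 0.429. The quadrant of TMPO and the lower end of the stretch thus exceeded the next by 43.6 times in SNU-C1.

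Around the second corner the quadrant of chromosome 12 above the upper edge of the gap with chromosome 13 below the upper edge of the stretch had an O/E of 202 (197 to 207, 5569 read pairs). It was followed by the quadrant below on both chromosomes with 5.05 (128 read pairs), and the quadrants with chromosome 13 above the edge had 1.86 (49) and 1.89 (55). In HCC1954 the same quadrant held 15 read pairs (0.908) and in OE33 34 (0.815). At both corners the second-ranked quadrant was the other side of chromosome 12 with the stretch, and the quadrants outside the stretch lay between 1.21 and 1.89. Read in order along chromosome 12, the contacts faced from below the gap to the lower end of the stretch, and from the upper end of the stretch to above the gap, which is the direction of both reference chromosomes.

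Single bins placed the edges. Read pairs with the whole stretch fell on chromosome 12 from 405 and 546 in the last bins below the gap to 12 and 7 in the first bins inside it. They rose from 11 and 12 in the last bins of the gap to 178 and 576 in the first bins above it. On chromosome 13, read pairs with the 10 Mb of chromosome 12 below the gap rose from 1 and 0 below the stretch to 203 and 316 inside it, and those with the 10 Mb above the gap fell from 362 and 416 to 1 and 3. Each edge was therefore complete within 1 bin of 40 kb, with 1 bin of intermediate height above the gap.

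**Figure D2:**
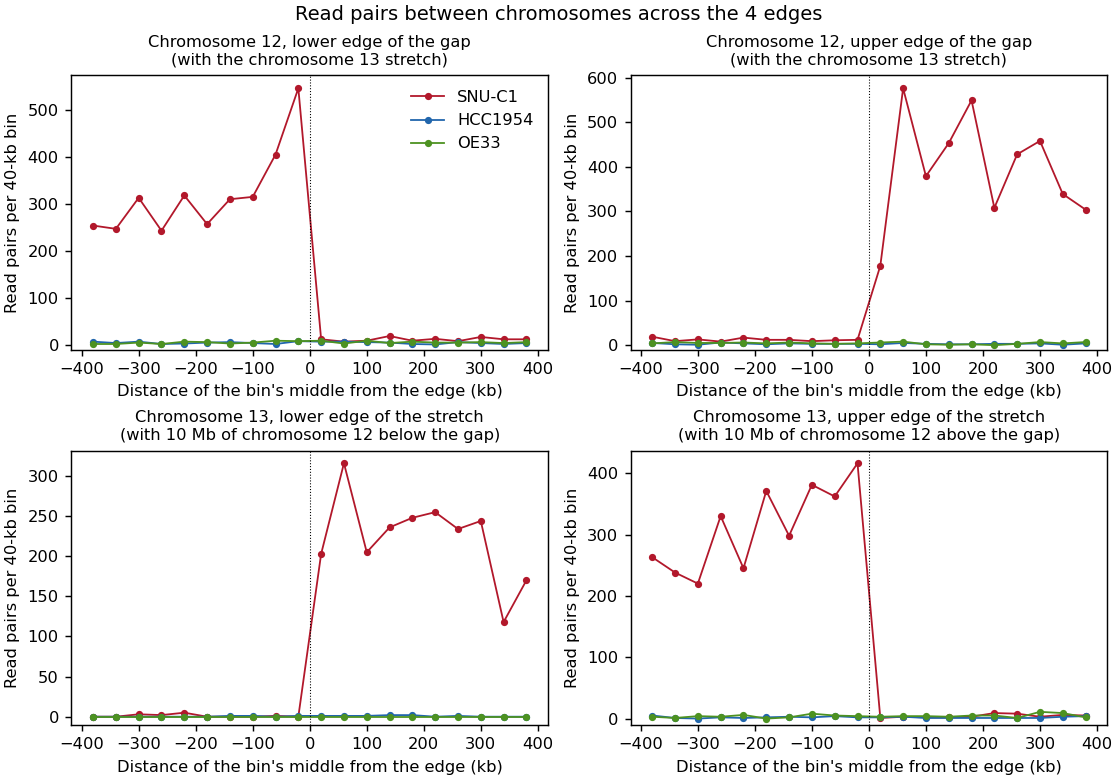
Read pairs per 40-kb bin with the other chromosome across the 4 edges in SNU-C1, HCC1954 and OE33, against the distance of the bin's middle from the edge in kb; chromosome 12 bins are counted with the whole stretch, and chromosome 13 bins with the 10 Mb of chromosome 12 on the side named. SNU-C1 steps from 546 to 12 read pairs at the lower edge of the gap and from 416 to 1 at the upper edge of the stretch. HCC1954 stays close to 0 on both sides of every edge, and OE33 does at 3 of the 4. OE33 had a coverage of 0 in the bins at the lower edge of the stretch, so it gives no comparison there. Its chromosome 12 counts rest on 368 usable bins of the 928 in the stretch.

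The gap itself had little contact with the stretch. Its 13 bins held 7 to 19 read pairs each in SNU-C1 with a median of 12, an O/E of 1.38, whereas the bins of the 2 Mb below held 109 to 546 with a median of 230 (30.6) and those of the 2 Mb above 139 to 576 with a median of 237.5 (26.2). In HCC1954 the medians were 4 below, 4 in the gap and 3 above, and in OE33 3, 5 and 3.5. The edges of the gap were placed where these SNU-C1 read pairs change, so the drop follows from their choice and is a description only. The edges were not placed on the other lines, whose medians showed no such drop. Coverage, the read pairs of a bin over the median of the autosomes, was 0.738 in the gap in SNU-C1, 0.923 below and 1.05 above. In HCC1954 it was 0.652, 0.854 and 0.728, also lowest in the gap. OE33 had 1.07, 0.997 and 0.921 and the SW480 replicates 1.06, 1.001 and 1.07, and 1.10, 0.998 and 1.04, with no drop in the gap. The part of coverage in the low contact of the gap was not tested.

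Protein-coding genes near the gap followed its edges. TMPO had an O/E with the stretch of 44.2 in SNU-C1 (1588 read pairs), 0.648 in HCC1954 and 1.06 in OE33, measured over the 200-kb blocks the gene touches. IKBIP, named for its binding to an NF-kappa-B kinase, and APAF1, the scaffold of the apoptosome, lie in the gap, and their shared block had 1.26 in SNU-C1 (57 read pairs), 0.581 in HCC1954 and 1.04 in OE33. The blocks of SLC25A3, the mitochondrial phosphate carrier, crossed the lower edge, so its 22.7 mixes both sides although the gene is in the gap. ANKS1B had 24.0 (8461 read pairs), 0.652 and 0.893, its lower end in the gap and the rest above it. GARIN6, nested in the span of ANKS1B above the edge, had 35.7 in SNU-C1, where HCC1954 had 0.648 and OE33 0.710.

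With distance from the gap the contacts of chromosome 12 genes with the stretch became weaker, but not evenly. Above the gap IGF1, the insulin-like growth factor, had an O/E of 17.7 at 3.31 Mb, TBX5 and TBX3, T-box transcription factors, had 5.84 and 4.47 at 15.3 and 15.6 Mb, and PTPN11, a tyrosine phosphatase, had 3.13 at 13.4 Mb. PTPN11 was thus below TBX5 and TBX3 although nearer to the gap. In the same order, IGF1, TBX5, TBX3 and PTPN11 had 0.922, 0.634, 0.658 and 0.643 in HCC1954.

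Below the gap, BTG1, an antiproliferative gene, had an O/E with the stretch of 6.77 at 6.42 Mb, and KITLG, the ligand of the KIT receptor, had 7.72 at 9.99 Mb. LGR5, a receptor that marks intestinal stem cells, had 3.45, HMGA2, an architectural chromatin protein gene, 2.69, and MDM2, the p53 ubiquitin ligase gene, 1.79. CDK4, a cell-cycle kinase, had 2.10 and KMT2D, a histone methyltransferase, 0.632, so the far genes of the long arm overlapped the range of the short arm. Of the listed genes, 2 of 11 on the long arm below the gap (median 2.00) and 0 of 6 on the short arm (1.58) reached an O/E of 4. Over all protein-coding genes with a value, 18.8% of 442 below the gap (median 1.75), 0 of 281 on the short arm (1.58) and 53.0% of 268 above it (4.22) did.

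Along chromosome 12 in 1-Mb blocks, the O/E with the stretch was 26.2 and 34.2 in the blocks starting at 97 and 98 Mb, 20.5 in the block at 99 Mb that holds most of the gap, and 24.7 at 100 Mb. It dropped to 2.32, 1.93 and 2.13 in the blocks at 121, 122 and 123 Mb and was 7.18 at 126 Mb. The long arm below the gap as a whole had 5.57 with the stretch (5.53 to 5.61, 84509 read pairs), against 0.681 in HCC1954 and 0.888 in OE33. Chromosome 12 above the gap had 7.53 (7.47 to 7.59, 64565 read pairs), against 0.719 and 0.944. The short arm had 1.77 with the stretch in SNU-C1, against 0.978 in HCC1954 and 0.958 in OE33. With chromosome 13 below and above the stretch it had 1.95 and 1.72 in SNU-C1, 1.34 and 1.35 in HCC1954, and 1.17 and 0.908 in OE33. The mean of the short arm was thus higher in SNU-C1 than in the other lines with each part of chromosome 13. In its 1-Mb blocks from 0 to 8 Mb, however, HCC1954 was higher than SNU-C1 with the stretch. The values were 2.04 against 1.34 at 0 Mb and 1.87 against 1.81 at 8 Mb.

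On chromosome 13 the 10 Mb of chromosome 12 on either side of the gap met the stretch from opposite ends. Below the gap, the O/E was highest in the 1-Mb block at 66 Mb, 106 with 3578 read pairs, and lowest in the block at 102 Mb, 3.40 with 239. Above the gap it was highest in the block at 102 Mb, 77.4 with 5235 read pairs. Its lowest value, 1.42 with 55 read pairs, was in the block at 65 Mb, most of which lies below the edge. Contact with the side below the gap exceeded that with the side above in 16 of 38 blocks, an unbroken run from the lower end to the block at 80 Mb. Both sides were in contact with the whole stretch, and they exchanged ranks near SPRY2, 15.0 Mb from the lower edge.

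**Figure D3:**
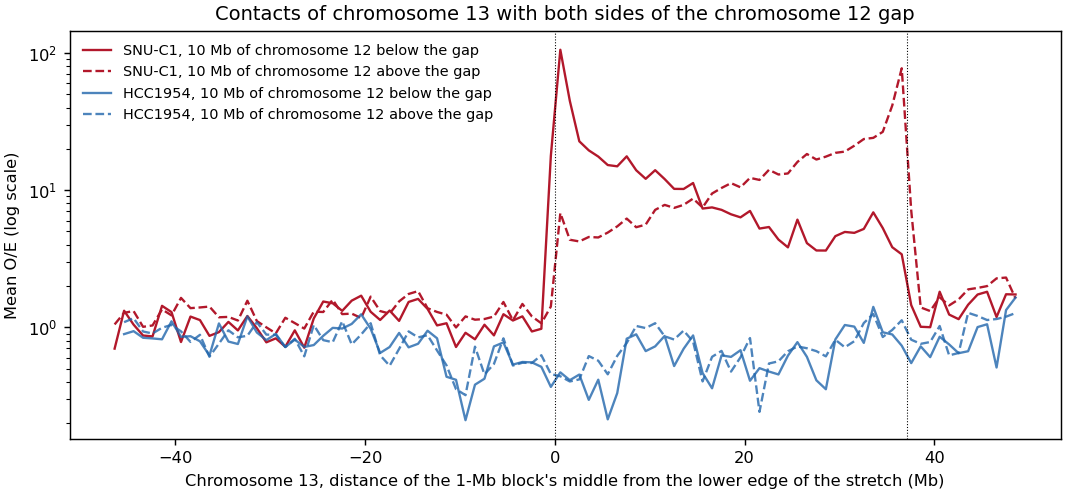
Mean O/E of 1-Mb blocks of chromosome 13 with the 10 Mb of chromosome 12 below (solid) and above (dashed) the gap in SNU-C1 and HCC1954, on a log axis, against distance from the lower edge of the stretch in Mb; dotted lines mark the edges of the stretch. In SNU-C1 the lines cross inside the stretch, with peaks of 106 at its lower end and 77.4 at its upper end, and in blocks wholly outside it they reach at most 2.30, with HCC1954 at most 1.65 along the whole chromosome.

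Genes in the stretch showed the same exchange. PCDH9 had an O/E of 49.3 with the 10 Mb of chromosome 12 below the gap and 4.76 with the 10 Mb above it, and KLHL1, a kelch-like gene, had 17.7 and 4.61. The transcription factor genes DACH1, KLF5, which is expressed in intestinal crypts, and KLF12 had 16.0, 18.9 and 12.1 below the gap and 5.43, 5.85 and 5.36 above it. LMO7, a cell-junction adaptor, had 16.5 and 7.29, EDNRB, an endothelin receptor gene, 9.55 and 6.47, and SPRY2, an inhibitor of receptor tyrosine kinase signalling, 9.77 and 8.47. All of these were nearer to the lower end and had more contact below the gap.

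From the upper end the order was the opposite. MIR17HG, the host gene of a microRNA cluster, had an O/E of 5.61 with chromosome 12 below the gap and 19.6 above it, and GPC5, a glypican gene beside it, had 4.07 and 18.0. NALCN, a sodium leak channel gene, had 3.24 and 51.1, and ITGBL1, an integrin beta-like gene, 3.38 and 52.7. FGF14 had 2.98 and 72.7 with 211 and 4997 read pairs, against 0.561 and 1.15 in HCC1954. Of the 10 listed genes of the stretch, 9 had an O/E of at least 4 below the gap and 10 above it, with medians of 10.9 and 6.88, and the medians of the same genes in HCC1954 were 0.620 and 0.793. Over all 63 protein-coding genes of the stretch, 58 (92.1%) and 63 (100%) did, with medians of 6.48 and 18.0.

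Chromosome 13 genes outside the stretch stayed low on both measures. TPP2, a peptidase gene 0.209 Mb above the upper edge, had an O/E of 2.00 with chromosome 12 below the gap and 2.13 above it. ERCC5, an endonuclease gene of nucleotide excision repair at 0.458 Mb, had 1.77 and 1.80, and IRS2, an insulin receptor substrate gene, 1.91 and 1.93. PCDH20, the nearest protein-coding gene below the stretch at 3.93 Mb, had 0.976 and 0.841, and CDX2, an intestinal homeobox gene, had 1.04 and 1.74. Of the listed genes, 0 of 8 below the stretch (medians 1.15 and 1.62) and 0 of 5 above it (1.77 and 1.80) reached an O/E of 4, as did 0 of 198 and 0 of 53 protein-coding genes in all. TPP2 and FGF14, on either side of the upper edge, thus differed on the side above the gap and were alike in range below it.

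Contact fell with summed distance, the distance from the lower or upper edge of the gap added to that from the matching end of the stretch. At a mean summed distance of 0.438 Mb the corrected frequency was 12.4 per bin pair at the first corner (10.8 to 14.1, 214 read pairs) and 8.38 at the second (318 read pairs). Within chromosomes of SNU-C1, the frequency at the same distance was 33.9. The contacts between the chromosomes thus stood at 36.4% and 24.7% of those of loci on the same chromosome. From 0.2 to 10 Mb they averaged 31.1% at the first corner and 27.9% at the second, and at a summed distance of 35.5 Mb they stood at 32.5% and 19.3%. Over the same range HCC1954 stood at 0.280% and 0.690%, and OE33 at 1.88% at the second corner. Without correction the shares at 0.438 Mb were 21.7% and 32.2%, and those from 0.2 to 10 Mb 28.4% and 37.1%, so the order of the corners turned. A share below the level within chromosomes can come from the share of cells or chromosome copies that carry such a joining or from contact per copy, which cannot be told apart here.

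The slope of log10 frequency on log10 distance up to 10 Mb, over 14 distances of which the nearest began at 0.4 Mb, was -1.48 ± 0.0561 (SE of the line) at the first corner and -1.37 ± 0.0596 at the second, beside -1.32 within chromosomes. These errors describe the fit of a line to distances of a single map and not replicates. The second corner's slope lay within 1 SE of that within chromosomes. Without correction the first corner's slope was -1.18 beside -1.32 within chromosomes, so it turned from steeper to shallower. In HCC1954 the slopes were -0.92 and -0.67 over 9 and 11 distances, the nearest of which held 1 read pair each, and in OE33 the slope at the second corner was 0.02 over 12. The fall at the first corner of SNU-C1 was not straight, and its share of the level within chromosomes was 55.2% at 1.77 Mb and 22.1% at 7.07 Mb. Coverage changed 1.4 Mb above the lower edge, as given below, and its part in this shape was not tested.

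**Figure D4:**
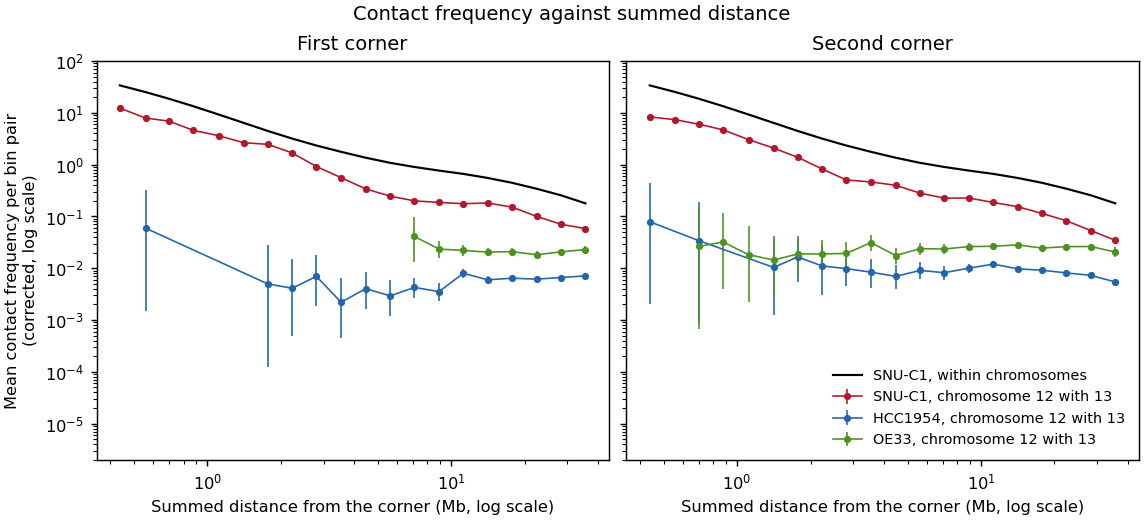
Mean corrected contact frequency per bin pair against summed distance from the first and second corner in Mb, on log axes, for chromosome 12 with 13 in SNU-C1, HCC1954 and OE33 (points with exact 95% Poisson intervals) and within chromosomes of SNU-C1 (black line); distances with no read pair are not drawn. SNU-C1 falls along the black line at 31.1% and 27.9% of it from 0.2 to 10 Mb, and HCC1954 and OE33 lie far below, with 1 to 5 read pairs in each of the 5 nearest points of HCC1954.

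Chromosome 13 as a whole was covered more in SNU-C1 than in the other lines. The median coverage of 1-Mb blocks was 2.28 below the stretch, 1.98 in it (0.657 to 2.49) and 2.45 above it in SNU-C1, while the stretch had 0.886 in HCC1954 and 1.06 and 1.01 in the SW480 replicates. On chromosome 12 it was 1.02 below the gap and 0.842 above it in SNU-C1. Without correction, which divides coverage out, the strongest quadrants had an O/E of 180 and 238. The part of coverage in these contacts was not tested.

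Coverage around the edges is given as medians of 2 Mb on each side, which can differ from the bins at the edge. At the lower edge of the stretch it fell in SNU-C1 from 1.23 below to 0.683 above. HCC1954 had 0.667 and 0.635, SW480 replicate 1 had 0.926 and 1.03, and replicate 2 had 0.933 and 1.03. OE33 had 0 on both sides. The log2 step of SNU-C1 relative to HCC1954 was -0.84, where the SW480 replicates differed by 0.013. This fall was local: coverage was 2.33 from 60 to 63.96 Mb, 1.22 from there to the lower edge, 0.657 from the edge to 67.32 Mb, and 2.12 from there to 75 Mb. The low part of the stretch ended inside PCDH9, and the same windows had 1.01, 0.927, 0.986 and 1.21 in SW480 replicate 1. In single bins of SNU-C1 the fall came before the edge, from 0.799 at chr13:65720001-65760000 to 0.358 and 0.326 in the last bins below it. Across the edge itself coverage rose, to 0.501 and 0.652 in the first bins inside. With windows of 5 Mb, which pass 67.32 Mb and bring OE33 into the reference on the lower side only, the step was 0.57. Relative to HCC1954 alone it was -0.05 over 5 Mb, so the wider window flattened the step and the turn came with the change of reference.

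At the upper edge of the stretch the coverage over 2 Mb rose from 1.86 to 2.19 in SNU-C1. It fell from 1.08 to 0.793 in HCC1954, from 0.791 to 0.722 in OE33, and from 1.11 to 0.937 and from 1.10 to 0.918 in the SW480 replicates. The log2 step relative to the other lines was 0.46, with -0.00091 between the SW480 replicates. The bins at this edge fell in SNU-C1 too, from 2.02 in the last inside to 1.38 in the first beyond. In HCC1954 these bins fell from 1.17 to 0.886, and in OE33 from 0.719 to 0.620. On chromosome 12 the step was 0.34 at the upper edge of the gap, where SNU-C1 rose from 0.848 to 1.05, with -0.014 between the SW480 replicates. At the lower edge of the gap SNU-C1 hardly changed over 2 Mb, from 0.923 to 0.914, but the upper window runs past the gap of 0.52 Mb. Over 1 Mb SNU-C1 fell from 0.939 to 0.809, and the gap itself had 0.738. The step of 0.15 over 2 Mb came from lower values above the edge in HCC1954 and OE33. It turned to -0.28 with SW480 in the reference and windows of 1 Mb, so no direction is given for it. Every step over 2 Mb exceeded the difference between the SW480 replicates, also that without a direction (0.15 beside 0.011). The comparison therefore sets no step apart. That difference is the spread of another line, and SNU-C1 itself had no replicate.

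**Figure D5:**
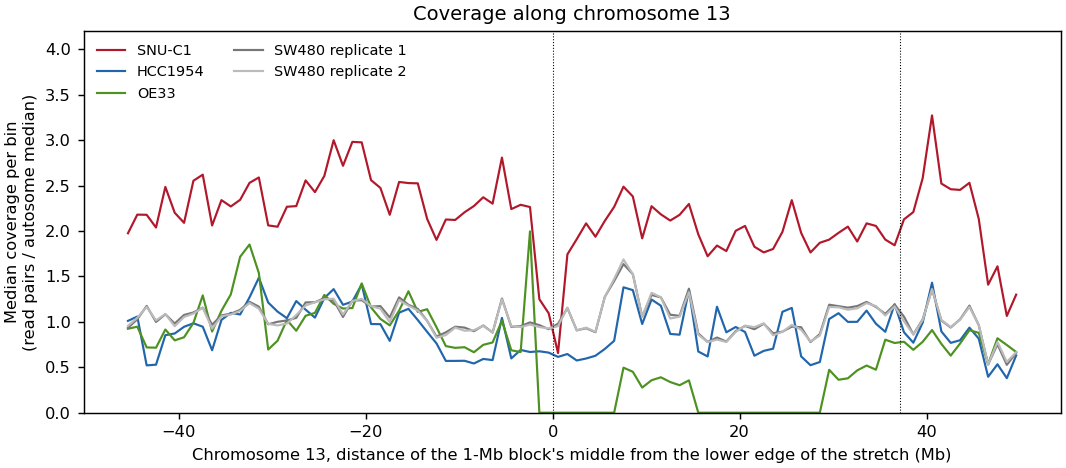
Median coverage of 1-Mb blocks along chromosome 13, as read pairs per bin over the autosome median, against distance from the lower edge of the stretch in Mb, for SNU-C1, HCC1954, OE33 and the SW480 replicates; dotted lines mark the edges of the stretch. SNU-C1 lies near 2 along most of the chromosome and drops to 0.657 just inside the lower edge, where the SW480 replicates stay near 1, and OE33 is at 0 over parts of the stretch.

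Contacts within each chromosome also differed at the edges. Here O/E is relative to the mean at the same distance within chromosomes of the same map. On chromosome 12, the 2 Mb below the gap with the 2 Mb above it had 0.714 in SNU-C1 (0.694 to 0.735, 4782 read pairs), 0.988 in HCC1954, 0.924 in OE33, and 1.14 in both SW480 replicates. The gap kept contact with both its neighbours, 0.834 with the 2 Mb below and 0.9502 with the 2 Mb above in SNU-C1, against 0.964 and 1.07 in HCC1954 and 0.760 and 1.13 in OE33. SNU-C1 was thus the lowest of all maps across the gap, but not between the gap and the side of TMPO.

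On chromosome 13 the difference was larger. The 2 Mb below the stretch, which lie 37.12 Mb from the 2 Mb above it in the reference, had an O/E with them of 13.2 in SNU-C1 (12.9 to 13.5, 6450 read pairs). The same regions had 1.55 in HCC1954 (300 read pairs), and 1.21 (247) and 1.22 (260) in the SW480 replicates. The highest bin pair, at 65.64 and 103.52 Mb, held 197 read pairs in SNU-C1 (98.8), 1 in HCC1954, and 0 in either SW480 replicate. The flanks of the stretch were therefore in contact with each other across it in SNU-C1. Its first 2 Mb with its last 2 Mb had 1.17 in SNU-C1, against 1.003 in HCC1954 and 1.04 and 0.958 in the SW480 replicates.

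The stretch also kept contact with its own flanks. The 2 Mb below it with its first 2 Mb had an O/E within the chromosome of 0.915 in SNU-C1, 1.60 in HCC1954, and 1.40 and 1.39 in the SW480 replicates. Its last 2 Mb with the 2 Mb above it had 0.903 in SNU-C1, 1.09 in HCC1954, 1.21 in OE33 and 1.13 in both SW480 replicates. SNU-C1 was the lowest of the maps with a value at both ends, yet near 1. It was also lowest next to the edges but inside the stretch: its first 2 Mb with the next 2 Mb had 0.710, against 1.22 in HCC1954 and 0.958 and 0.966 in the SW480 replicates, and its last 2 Mb with the 2 Mb before had 0.835, against 1.05, 0.842 in OE33, and 1.10 in both SW480 replicates. The low values were thus not particular to contacts across the ends. Another bin pair near the lower end, at 63.88 and 67.32 Mb, held 536 read pairs in SNU-C1 (23.8), 14 in HCC1954 (2.03), and 15 and 17 in the SW480 replicates (1.85 and 2.02). These are also the places of the coverage changes on either side of the lower edge, the upper of them in PCDH9.

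Compartments were assigned to 200-kb blocks by the first eigenvector within the chromosome or arm, positive for A. At both chromosome 12 edges every block within 400 kb was negative in SNU-C1 and in the mean of the other lines, with -0.30 and -0.24 in the block of TMPO and -1.04 and -1.53 in the block of the upper edge. The block of the lower edge of the stretch was also in B, with -0.83 in SNU-C1 and -1.34 in HCC1954. The 2 blocks below that edge, outside the stretch, were near 0 in SNU-C1, with -0.00053 and -0.04 against -1.28 and -1.17 in HCC1954. The block of the upper edge of the stretch and the 2 blocks below that edge had -1.20, -1.38 and -1.37 in SNU-C1. The mean of the other lines was -0.27, -0.13 and -0.08. Those lines differed in sign, with 0.09, 0.44 and 0.18 in HCC1954 and -0.63, -0.69 and -0.34 in OE33. SNU-C1 thus shared its class with OE33 there. The blocks above the upper edge had 0.17 and 0.23 in SNU-C1 against 0.68 and 0.45 in the mean of the other lines. The blocks of NALCN and ITGBL1 had -1.30 and -1.37 in SNU-C1 and 0.49 and 0.91 in the mean of the other lines. In the stretch, 22.6% of blocks were A in SNU-C1 and 37.3% by the mean of the other lines, and SNU-C1 and HCC1954 gave the same class to 82.7% of its 185 blocks, close to the 84.5% of 471 on the whole chromosome. With 1 map per line these differences have no replicate check, and the eigenvector rests on contacts within chromosome 13, which differed across the upper edge as given above.

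Contacts between the chromosomes were then compared by class, with classes from the other lines and each value set over the mean at the same summed distance, from 5 to 40 Mb. At the first corner, chromosome 12 B blocks with chromosome 13 B blocks had 1.25 in SNU-C1 (1.24 to 1.27) and A with A had 0.902, while chromosome 12 A with chromosome 13 B had 0.617 and B with A had 0.949. In HCC1954 the same blocks had 0.938 for B with B (0.874 to 1.01), 1.65 for A with A, 0.625 for A with B and 1.21 for B with A. At the second corner SNU-C1 had 1.32 for B with B (1.29 to 1.34), 0.925 for A with A, 0.571 for A with B and 1.22 for B with A. HCC1954 had 0.941, 1.43, 0.693 and 1.01 there. In these 200-kb blocks the highest class was thus B with B in SNU-C1 and A with A in HCC1954 at both corners. These classes came in part from HCC1954 itself. With classes from SNU-C1, A with A in SNU-C1 was 1.09 at the first corner and 1.15 at the second. B with B was then 1.28 and 1.48 in SNU-C1, and A with A was 1.79 and 1.45 in HCC1954. Chromosome 12 A with chromosome 13 B was the lowest class in both lines. In blocks of 400 kb the highest SNU-C1 class at the second corner was B with A, 1.23 beside 1.21 for B with B.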

How the data were processed

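Hi-C was measured in the cancer lines SNU-C1, HCC1954, OE33 and SW480. The authors digested nuclei with MboI in duplicate, mapped reads to hg19 (BWA-MEM), dropped PCR duplicates (Picard), and built and iteratively corrected the matrices with their own pipelines. The tools' versions were not given in the sources used here. Each deposited signal is a corrected contact frequency per pair of 40-kb bins, which evens out coverage and so also copy number. None of these sources says whether the single maps of SNU-C1, HCC1954 and OE33 sum both duplicates. Read pairs were recovered by scaling the values with 1 factor per bin until they were whole within 0.02, which held for 100% of tested values in these 3 lines and in the SW480 replicates. They gave coverage and intervals, and the depths are in the report.

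Chromosomes 12 and 13, the gene lists and the settings were chosen with earlier results of these data known. Groups came from the labels. O/E, edges (the change point of a Poisson count), quadrants, decay, coverage steps and compartments were computed in Python 3.11.15 with NumPy 2.4.6, SciPy 1.17.1, pandas 2.3.3 and Matplotlib 3.10.9. Only the finding of corners, their edges and sides and the calling of block pairs were tested on simulated data, with an even background. Genes were named if they overlapped or lay nearest to a corner, lay within 500 kb of the first corner, or stood on lists for chromosomes 12 and 13, and of these the text gives those near the edges and those of known role. Some listed genes of chromosome 12 above the gap are not reported here, nor is the summary of that list. Gene positions came from the GENCODE annotation of GRCh37. The SW480 map without a replicate number was not used, nor was any SW480 map between chromosomes. With 1 map per line no test across samples was made. The alternatives were other block, quadrant and window sizes, thresholds, coverage limits, expected values, reference lines and uncorrected read pairs. The planned blocks of 500 kb were run as 480 kb, a whole number of bins.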

Additional observations from a re-analysis of the deposited data

How the results depend on the processing

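Of 47 alternative values, 7 moved by less than the counting or fit error (for coverage, the difference between SW480 replicates, and for counts, 1.5 times), 39 moved by more and 1 reversed. The mean O/E of chromosome 12 with 13 in SNU-C1 was 3.20 without correction, 1.90 with bins of at least 0.5 of the median coverage, 1.54 with an expected value from the product of the chromosomes' sums, and 2.92 with HCC1954 alone as reference and OE33 bins not required, an alternative chosen after seeing the data. The 493 specific block pairs of 9216 tested became 905 without correction. Over all chromosome pairs the count then rose from 5706 to 15329 of 3357270. They were 71 of 6384 at 0.5 coverage and 165 of 9216 at a threshold of 8, beside 4171 of 2538993 and 1438 of 3357270 over all. In 2-Mb blocks they were 135 of 2205 and in 480-kb blocks 2111 of 39336, beside 1381 of 841743 and 69972 of 14528260. The number tested changes with block size, so these counts are on another scale. They were 1362 of 12160 with HCC1954 alone as reference and OE33 bins not required, also chosen after seeing the data, beside 9451 of 3427031. They were 493 with at least 10 read pairs, and 574 and 571 with HCC1954 or OE33 alone as reference.

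Both corners stayed within 40 kb under every alternative for them. The O/E of the first was 9012.5 in single bins, 2596 over 5 by 5 bins and 2045 without correction, and that of the second 4598, 1777 and 2972, so their order changed without correction. The strongest quadrant was the same throughout, with 595 in 1 Mb, 72.1 in 5 Mb and 180 without correction at the first corner, and 501, 59.998 and 238 at the second. The slope at the first corner was -1.31 to 20 Mb and -1.18 without correction, beside -1.20 and -1.32 within chromosomes. At the second it was -1.49 to 5 Mb and -1.24 to 20 Mb. The log2 coverage step was 0.11, 0.28 and 0.13 at the lower edge of the gap with windows of 1 Mb, of 5 Mb and with SW480 added to the reference, -0.89, 0.57 and -0.90 at the lower edge of the stretch, and 0.43, 0.25 and 0.58 at its upper edge. At the upper edge of the gap it was 0.36 with 1 Mb and 0.28 with SW480. The reversal at the lower edge of the stretch came with a reference that held HCC1954 and OE33 below but HCC1954 alone above, and relative to HCC1954 alone the 5-Mb step was -0.05. The B with B value was 1.28 at the first corner with classes from SNU-C1, and 1.21 in 400-kb blocks and 1.48 with classes from SNU-C1 at the second. In 400-kb blocks B with A was the highest class at the second corner, with 1.23.

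No paired analysis was possible because SNU-C1, HCC1954 and OE33 each had 1 map. The deposited bins limit the corners to 40 kb, and at this depth the weaker maxima rest on 8 read pairs each. Comparison with OE33 is limited to its 368 usable bins of the stretch.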
